A study of Homo sapiens with 24 samples.

Results

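The genes described here are 10 transcripts of the unfolded protein response (UPR) and of endoplasmic reticulum (ER)-associated degradation (ERAD). They are the UPR sensors ERN1 and ATF6, the transcription factor XBP1, and the degradation genes HERPUD1, SYVN1, SEL1L, DERL1, DERL2, DERL3 and EDEM1. They were taken by symbol from the count table, which holds 60232 gene identifiers. All 10 were found and all 10 were among the 18379 genes with enough reads to be tested. RNA sequencing was done in 22Rv1, an established prostate carcinoma cell line. The libraries used fall into 3 groups of 3, described as biological triplicates. One group received KB02 at 200 µM, another received KB05 at 200 µM, and the third received the DMSO vehicle. Both compounds are small molecules, given only by code name. All 3 groups carry a time point of 3 h, and the design text gives 1 h with either compound and then 2 h of recovery in fresh medium. The columns of the count table carry a tag of 2 h, which was read as the recovery time. No genetic change beyond the line itself is given for any group, and the line is a single tumour-derived culture.

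The ER folds secreted and membrane proteins, and misfolded protein in its lumen activates the sensors IRE1 (the product of ERN1), ATF6 and PERK. Activated IRE1 splices XBP1 mRNA, which then encodes a potent transcription factor, while ATF6 is cut in the Golgi to release its own transcription factor domain. Both factors raise the genes for ER chaperones and for ERAD, in which glycan-reading proteins and a membrane complex built on the ligase HRD1 (the product of SYVN1) return misfolded proteins to the cytosol for ubiquitination and destruction by the proteasome. The values here are gene totals, so spliced and unspliced XBP1 were not distinguished.

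Promoter sequence is shown for HERPUD1 and XBP1, the members whose windows held letters of the search described here. Their transcripts did not follow the 7 members that fell with both compounds. Nor did that of ERN1, whose window held none of the letters. The windows searched were RefSeq promoters of build GRCh38.p14, from 250 bases before to 50 after each annotated start, and 8 of the 10 genes matched. Letters were searched on both strands for ERSE (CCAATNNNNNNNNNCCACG), ERSE-II (ATTGG, any base, then CCACG), UPRE (TGACGTGG) and CRE (TGACGTCA), elements known as sites of ATF6, XBP1 and CREB/ATF factors. ERSE and ERSE-II share the letters CCACG, and UPRE and CRE share TGACGT. Among the members, XBP1 held ERSE letters in 1 of its 2 windows, HERPUD1 held ERSE-II letters, and the windows of ERN1, ATF6, DERL2, SEL1L, SYVN1 and EDEM1 held none of the 4. DERL1 and DERL3 were not matched. Other elements were not searched for, so unmarked letters may still hold one. Capitals mark the element in the stretches below, which run 5′ to 3′ along each gene's own strand, HERPUD1 at chr16:56931892-56932047 on the plus strand and XBP1 at chr22:28800598-28800819 on the minus strand.
HERPUD1: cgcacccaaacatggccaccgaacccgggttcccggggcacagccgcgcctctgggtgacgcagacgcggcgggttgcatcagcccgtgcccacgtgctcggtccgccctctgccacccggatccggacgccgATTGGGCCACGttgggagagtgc
XBP1: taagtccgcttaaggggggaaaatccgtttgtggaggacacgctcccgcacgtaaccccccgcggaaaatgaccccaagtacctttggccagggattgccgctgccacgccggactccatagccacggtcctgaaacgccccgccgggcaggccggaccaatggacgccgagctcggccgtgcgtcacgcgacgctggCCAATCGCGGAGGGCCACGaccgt

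The ERSE-II letters of HERPUD1 end 107 bases before its RefSeq start and the ERSE letters of XBP1 end 34 bases before its own. Of 35116 windows in the table, 0.0769% held ERSE, 0.0541% held ERSE-II, 0.729% held UPRE and 1.85% held CRE. A match describes letters in a window, and no match says only that the letters are absent from that window. The 17 tested genes with ERSE letters included XBP1 and the ER chaperones and folding enzymes HSPA5, CALR, CANX, HSP90B1 and PDIA6. With KB02, 4 of the 17 were higher and 11 lower than with DMSO (median log2 fold change -0.82), where 22.8% of all tested genes were called higher and 23.3% lower. With KB05, 2 were higher and 9 lower (median -0.30), beside 18.7% and 21.1% of all tested genes. The 4 higher with KB02 were SERP1, EIF2A and the near-identical paralogs FRG2 and FRG2B, whose estimated counts are uncertain. Of 15 tested genes with ERSE-II letters, 4 were higher and 4 lower with KB02, and 3 were higher and 2 lower with KB05. On the log2 scale, the 4 higher with KB02 were HERPUD1 (0.39), ZNF143 (1.21), CNKSR1 (0.45) and CAMTA1 (0.20). The 4 lower were NUCB1 (-1.31), HYOU1 (-0.78), PLS3 (-0.77) and SDF2L1 (-0.73). These gene groups were formed after values were seen and carry no test.

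Total estimated counts were 17216861 to 21900671 for KB02, 15507130 to 19617330 for KB05 and 17565251 to 19830410 for DMSO. All levels below are CPM, the usual depth-scaled counts with TMM factors, and 3 reads amount to 0.129 to 0.195 CPM. Calls are adjusted p-values under 0.05 from edgeR's quasi-likelihood test with Benjamini-Hochberg adjustment over all 18379 genes. Markers of cell type were read beside the label. All 9 prostate luminal markers were detected, summing to 2440 to 2596 CPM with KB02, 3140 to 3198 with KB05 and 2637 to 3007 with DMSO. Of 16 markers of other cells 9 passed the filter, and the 16 summed to 169 to 185, 232 to 257 and 264 to 310 CPM in the KB02, KB05 and DMSO libraries, mostly SYP. The neuroendocrine marker SYP had 119 to 129, 190 to 215 and 229 to 262 CPM in that order of groups. The stromal marker COL1A1 had 20.3 to 27.5, 18.7 to 20.9 and 13.2 to 15.4, and the lymphocyte marker PTPRC had 6.84 to 11.9, 11.1 to 12.1 and 11.5 to 18.6. Markers of other cells were therefore not all absent. KRT5 had 1 read and VWF 3 reads in all, and CD14 averaged 8.80 ± 2.62 CPM with KB02, 0.397 ± 0.269 with KB05 and 0.541 ± 0.249 with DMSO. Mitochondrially encoded genes took 15.5 ± 0.61% of counts with KB02, 14.3 ± 0.69% with KB05 and 17.8 ± 0.96% with DMSO (SD, n = 3 each). The part of these shares and markers in the results was not tested. Scaling by library size alone, without TMM factors, shifted the median log2 fold change of all genes by 0.13 for KB02 against DMSO and by -0.11 for KB05 against KB02. Under that scaling 63.8% of the KB02 calls were higher, against 49.5% with TMM, and 37.4% of the KB05 against KB02 calls, against 54.4%.

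Among the sensors, ATF6 fell with both compounds while ERN1 was not called in any comparison. ATF6 (chromosome 1, 161766294 to 161964070, GENCODE 29 on GRCh38) encodes the membrane-bound sensor that becomes a transcription factor. It had 28.9, 33.1 and 29.2 CPM in the KB02 libraries, 38.0, 39.5 and 40.8 in the KB05 libraries, and 55.8, 49.1 and 46.5 in the DMSO libraries. The 3 groups did not overlap, with KB02 lowest, KB05 between and DMSO highest. ATF6 was 1.66-fold lower with KB02 than with DMSO (log2 fold change -0.73 ± 0.08 SE, adjusted p = 1.29e-08) and 1.28-fold lower with KB05 (-0.36 ± 0.08, adjusted p = 0.000983). Fewer cells of a type and less RNA per cell cannot be told apart in such bulk libraries.

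ERN1 (chromosome 17, 64039142 to 64130819) encodes IRE1, the kinase and endoribonuclease. It had 18.6, 14.1 and 18.7 CPM with KB02, 14.9, 15.02 and 14.8 with KB05, and 13.9, 14.2 and 15.7 with DMSO. One KB02 library lay within the DMSO range and the other two above it, whereas all KB05 libraries lay inside that range. The log2 fold change against DMSO was 0.23 with KB02 (95% interval -0.01 to 0.46, adjusted p = 0.105) and 0.03 with KB05 (-0.21 to 0.27, adjusted p = 0.876). Without KB02 replicate 2 the KB02 value was 0.40 and was called (adjusted p = 0.00593), as it was at 0.28 with upper-quartile factors and at 0.36 with library size as the sole scaling. Over all 16 alternatives its adjusted p ran from 0.00593 to 0.314.

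XBP1 (chromosome 22, 28794555 to 28800597), the factor whose mRNA IRE1 splices, fell with KB02 and was not called with KB05. It had 161, 159 and 146.5 CPM in the KB02 libraries, 252, 248 and 221 in the KB05 libraries, and 255, 222 and 216.5 in the DMSO libraries. KB02 libraries lay below every other library, and the KB05 and DMSO ranges overlapped almost wholly. The fall with KB02 was 1.49-fold (log2 fold change -0.57 ± 0.07, adjusted p = 1.38e-07). With KB05 the log2 fold change was 0.06 (95% interval -0.09 to 0.21, adjusted p = 0.583). The difference between the compounds was itself called, with XBP1 1.54-fold higher with KB05 than with KB02 (log2 fold change 0.63 ± 0.07, adjusted p = 3.95e-08).

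HERPUD1 was the one member that rose with both compounds. The gene (chromosome 16, 56932048 to 56944863) encodes a stress-induced ER membrane protein with a ubiquitin-like domain that organises the HRD1 complex. It had 169, 165 and 178 CPM with KB02, 230, 229 and 199 with KB05, and 139, 121 and 131 with DMSO. Each group stood apart from the others, with KB05 highest. HERPUD1 was 1.31-fold higher with KB02 than with DMSO (log2 fold change 0.39 ± 0.07, adjusted p = 4.55e-05) and 1.68-fold higher with KB05 (0.75 ± 0.07, adjusted p = 1.35e-09). Between the compounds it was 1.28-fold higher with KB05 (0.36 ± 0.07, adjusted p = 0.000146).

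SYVN1, which encodes the HRD1 ligase at the centre of the complex (chromosome 11, 65121780 to 65134533), moved the other way. It had 54.6, 49.6 and 48.8 CPM with KB02, 69.2, 61.4 and 59.0 with KB05, and 96.2, 103.5 and 103 with DMSO. The groups did not overlap, in the order KB02, KB05, DMSO. The fall was 1.98-fold with KB02 (log2 fold change -0.98 ± 0.08, adjusted p = 2.38e-12), the deepest among the 10 members, and 1.59-fold with KB05 (-0.67 ± 0.08, adjusted p = 1.89e-08). SYVN1 exons share 398 bases with FAU on the same strand and 356 bases with MRPL49 on the opposite strand. FAU was not called with either compound (log2 fold changes 0.06 with KB02 and 0.17 with KB05), and MRPL49 rose by 0.43 and 0.31 with KB02 and KB05.

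SEL1L (chromosome 14, 81471549 to 81533861) encodes the partner that stabilises HRD1 and passes substrates to it. It had 74.2, 76.4 and 65.3 CPM with KB02, 71.3, 65.1 and 65.1 with KB05, and 97.6, 87.8 and 89.4 with DMSO. Every treated library lay below every DMSO library, and the ranges with KB02 and KB05 overlapped. It fell 1.27-fold with KB02 (log2 fold change -0.35 ± 0.07, adjusted p = 0.000263) and 1.36-fold with KB05 (-0.45 ± 0.08, adjusted p = 1.65e-05). With library size as the sole scaling the KB02 value was -0.21 (adjusted p = 0.0229, and 1.5e-05 to 0.0229 over the alternatives), still a fall.

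**Figure D1:**
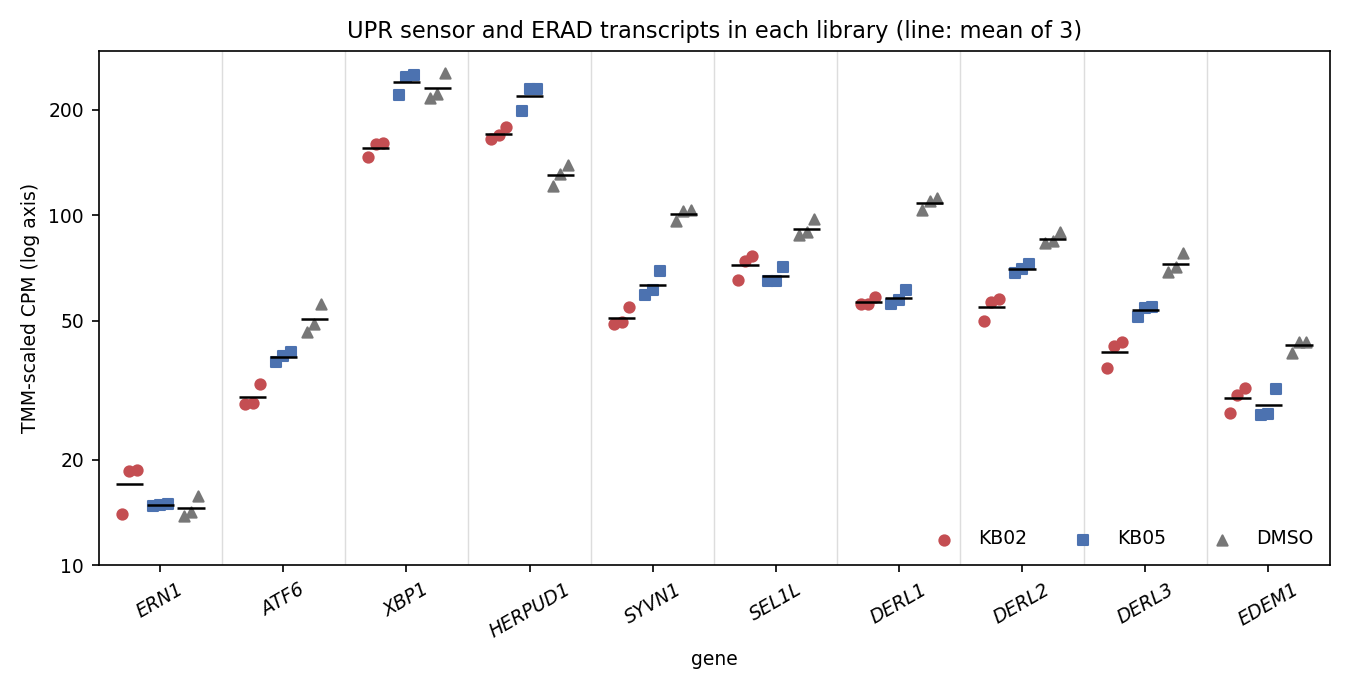
TMM-scaled CPM (log axis) of the 10 members in each of the 9 libraries, with KB02 as red circles, KB05 as blue squares and DMSO as grey triangles; the line is the mean of 3. HERPUD1 is higher in all treated libraries (165 to 230 CPM) than in DMSO libraries (121 to 139 CPM), while SYVN1 and the DERL genes are lower.

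The 3 derlins, rhomboid-like membrane proteins of the channel through which ERAD substrates leave the ER, all fell with both compounds, but in different proportions. DERL1 (chromosome 8, 123013164 to 123042423) had 58.3, 55.8 and 55.7 CPM with KB02, 55.7, 61.2 and 57.1 with KB05, and 112, 103 and 110.0 with DMSO. Treated libraries lay near the same level whichever compound was given, and far below DMSO. The fall was 1.92-fold with KB02 (log2 fold change -0.94 ± 0.07, adjusted p = 1.31e-12) and 1.87-fold with KB05 (-0.90 ± 0.07, adjusted p = 1.38e-11), the deepest fall of a member with KB05.

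DERL2 (chromosome 17, 5471251 to 5486811) had 57.6, 56.7 and 49.8 CPM with KB02, 68.2, 72.8 and 70.4 with KB05, and 83.5, 84.4 and 89.4 with DMSO. The groups formed 3 separate steps, unlike those of DERL1. The fall was 1.57-fold with KB02 (-0.65 ± 0.07, adjusted p = 8.47e-09) and 1.22-fold with KB05 (-0.28 ± 0.07, adjusted p = 0.00223).

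DERL3 (chromosome 22, 23834503 to 23839128) had 36.6, 42.4 and 43.4 CPM with KB02, 54.5, 54.7 and 51.3 with KB05, and 68.6, 70.9 and 78.1 with DMSO, again in 3 separate steps. It fell 1.78-fold with KB02 (-0.83 ± 0.08, adjusted p = 2.71e-10) and 1.36-fold with KB05 (-0.44 ± 0.08, adjusted p = 3.95e-05). DERL3 is reported as uncertain because 2923 of its 3796 exon bases lie opposite exons of SMARCB1, and the sources used here do not say whether reads were assigned by strand. SMARCB1, a chromatin-remodelling subunit, moved in the other direction, with 187 ± 14.1 CPM with KB02, 183 ± 3.36 with KB05 and 155 ± 5.74 with DMSO (SD, n = 3 each).

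EDEM1 (chromosome 3, 5187646 to 5219957) encodes a mannosidase-related protein that marks misfolded glycoproteins for ERAD. It had 32.1, 30.7 and 27.2 CPM with KB02, 31.9, 27.0 and 27.0 with KB05, and 43.6, 43.5 and 40.5 with DMSO. Treated libraries lay below DMSO libraries and overlapped each other. It fell 1.41-fold with KB02 (-0.50 ± 0.09, adjusted p = 1.72e-05) and 1.48-fold with KB05 (-0.57 ± 0.09, adjusted p = 5.55e-06). Its exons share 653 bases with an antisense transcript, and those of DERL1 and DERL2 share 396 and 301 bases with TBC1D31 and MIS12 on the opposite strand.

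Counted over the 10 members, 1 was higher and 8 were lower with KB02 than with DMSO, where 46.1% of all tested genes were called, 22.8% higher and 23.3% lower. The members' median log2 fold change was -0.61, beside 0.00 for all tested genes. With KB05, 1 was higher and 7 were lower, where 39.8% of tested genes were called, 18.7% higher and 21.1% lower. The members' median was -0.40, beside -0.00 for all tested genes. In each comparison the members whose library ranges did not overlap were those called. Ranges and calls rest on the same counts, and the share of all tested genes without overlap was not counted. In all, 7 members fell with both compounds, HERPUD1 rose with both, XBP1 fell with KB02 and was not called with KB05, and ERN1 was called with neither. The comparisons share the DMSO libraries.

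Set directly against KB02, KB05 left 6 members higher and 0 lower by edgeR's test, where 40% of tested genes were called, 21.8% higher and 18.2% lower. The median log2 difference was 0.34, beside 0.06 for all genes. At an unadjusted p under 0.05 the count of lower members was also 0, and by DESeq2 likewise 0. The 6 were XBP1 and HERPUD1, described above, with DERL3 (1.31-fold, log2 0.39 ± 0.08, adjusted p = 0.000192), ATF6 (1.298-fold, 0.38 ± 0.09, adjusted p = 0.000637), DERL2 (1.29-fold, 0.36 ± 0.07, adjusted p = 0.000164) and SYVN1 (1.24-fold, 0.31 ± 0.08, adjusted p = 0.00143). So of the 7 members that fell with both compounds, 4 stood higher with KB05 than with KB02. For DERL1 the difference was 0.03 (95% interval -0.11 to 0.18), for SEL1L -0.10 (-0.25 to 0.05), for EDEM1 -0.07 (-0.25 to 0.12) and for ERN1 -0.20 (-0.43 to 0.03). Those intervals bound the differences and do not show that the compounds act alike. Without KB02 replicate 2 the ERN1 difference was -0.37 (adjusted p = 0.0127, and 0.0127 to 0.425 over the alternatives). With library size alone as the scaling, ERN1 and SEL1L were also called lower with KB05, at -0.31 and -0.22, DERL1 turned to -0.08, and SYVN1 was 0.20.

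**Figure D2:**
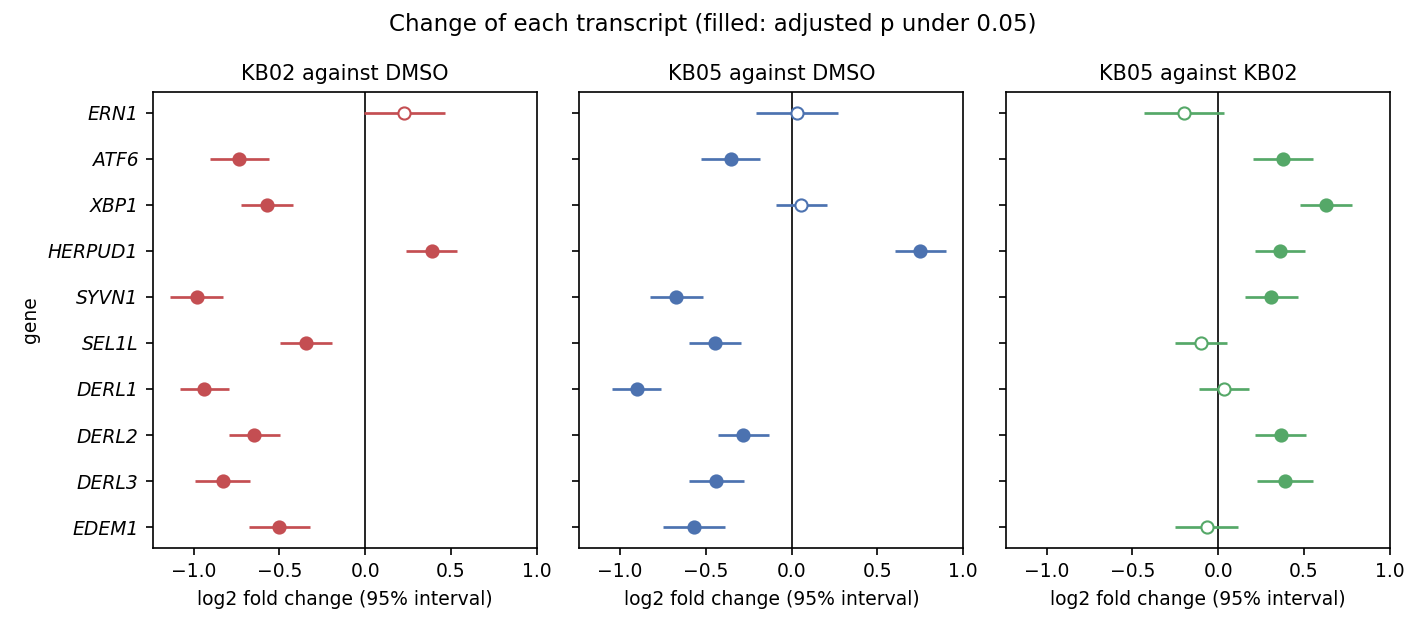
Log2 fold change of each member with its 95% interval for KB02 against DMSO, KB05 against DMSO and KB05 against KB02; filled points have an adjusted p under 0.05. HERPUD1 lies to the right of 0 in all 3 panels, and DERL1 lies near -0.9 against DMSO and near 0 between the compounds.

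The order of the members was compared per length, as CPM per kilobase of annotated exon. XBP1 stood first in all 3 groups (51.4 ± 2.60 with KB02, 79.4 ± 5.54 with KB05 and 76.3 ± 6.94 with DMSO) and HERPUD1 second (33.1 ± 1.298, 42.6 ± 3.41 and 25.3 ± 1.72 in the same order of groups). ERN1 stood last, with 1.58 ± 0.244 with KB02, 1.37 ± 0.011 with KB05 and 1.34 ± 0.092 with DMSO. Between them the derlins, SYVN1 and SEL1L lay at 7.53 to 10.8 with KB02, 7.03 to 14.1 with KB05 and 9.59 to 19.1 with DMSO, and ATF6 and EDEM1 lay at 3.85 to 6.40 over the 3 groups. Neighbours whose spreads met in the DMSO libraries were DERL3 with SYVN1 (19.1 ± 1.302 and 18.3 ± 0.73) and ATF6 with EDEM1 (6.40 ± 0.61 and 6.29 ± 0.26). DERL1 stood above DERL2 with DMSO (15.3 ± 0.66 against 13.4 ± 0.49), below it with KB05 (8.19 ± 0.41 against 11.03 ± 0.36), and within the spread of it with KB02 (7.99 ± 0.20 against 8.56 ± 0.66).

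Ratios taken within a library do not depend on its scaling and describe the same shifts in proportion. HERPUD1 counts were 3.36 ± 0.28 times those of SYVN1 with KB02 and 3.48 ± 0.23 times with KB05, against 1.297 ± 0.138 times with DMSO (SD, n = 3 each). The lowest treated ratio, 3.10, was above the highest DMSO ratio, 1.45. The ratio of SEL1L to SYVN1, the partners of 1 ligase, was 1.41 ± 0.11 with KB02, 1.06 ± 0.04 with KB05 and 0.911 ± 0.09 with DMSO. XBP1 stood at 5.14 ± 0.38 times ATF6 with KB02, 6.11 ± 0.62 times with KB05 and 4.58 ± 0.07 times with DMSO. DERL1 stood at 1.04 ± 0.07 times DERL2 with KB02, 0.823 ± 0.016 times with KB05 and 1.27 ± 0.07 times with DMSO. These pairs were chosen after the values were seen and carry no test, and a ratio shows unequal change, not which gene moved.

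**Figure D3:**
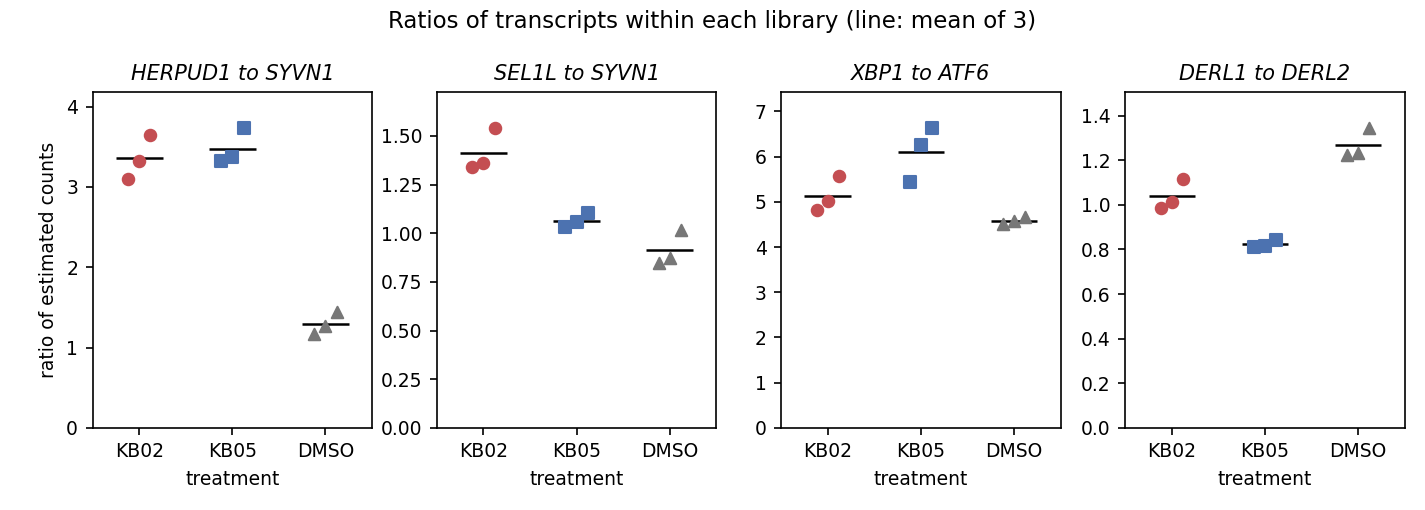
Ratio of estimated counts of 2 transcripts within each library, by treatment; points are libraries and lines are means of 3. HERPUD1 to SYVN1 lies between 3.10 and 3.74 in the treated libraries and between 1.17 and 1.45 in the DMSO libraries.

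Other genes of the same machinery, from lists drawn up by function, are counted here without the members. The lists were chosen with earlier results of these data known, so their counts are no independent check on the members. Of 11 further UPR transducers and activating factors listed, 9 were tested. With KB02, 7 of the 9 were lower than with DMSO and the rest not called (median log2 fold change -1.03), beside 23.3% of all tested genes lower. With KB05, 4 were lower and the rest not called (median -0.30), beside 21.1% of all tested genes lower. The ER-membrane transcription factor CREB3L1 had 3.75 ± 0.29 CPM with KB02, 7.37 ± 1.97 with KB05 and 9.11 ± 0.71 with DMSO, a fall of 1.28 on the log2 scale with KB02. MBTPS2 and MBTPS1, the Golgi proteases that cut ATF6, fell with KB02 by 1.23 and 0.83. With KB05, MBTPS1 fell by 0.59 and CREB3L2, a relative of CREB3L1, by 0.64, and MBTPS2 had -0.30 (adjusted p = 0.0905). CREB3L2 fell by 1.03 with KB02, and CREB3L1 had -0.30 with KB05 (adjusted p = 0.154). EIF2AK3, which encodes the sensor PERK, was not called (log2 fold changes 0.04 with KB02 and -0.08 with KB05), nor was RTCB, the ligase that joins the cut XBP1 exons (-0.03 and 0.07). With KB05 against KB02, 7 of the 9 were higher, CREB3L1 and MBTPS2 by 0.98 and 0.92, and the rest not called. Of all tested genes, 21.8% were higher in that comparison.

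Within the HRD1 complex, 7 further components were tested. With KB02, 6 were lower (median -0.82), with KB05, 5 were lower (median -0.26), and the rest were not called. The shares of all tested genes called lower were 23.3% with KB02 and 21.1% with KB05. The lectins ERLEC1 and OS9, which read trimmed glycans on substrates, had 15.5 ± 0.86 and 207 ± 7.75 CPM with KB02, 18.7 ± 0.64 and 262 ± 9.11 with KB05, and 32.4 ± 7.40 and 366 ± 19.7 with DMSO. That amounts to falls of 1.07 and 0.82 with KB02 and of 0.79 and 0.48 with KB05 on the log2 scale. FAM8A1, a cofactor of HRD1, fell by 0.98 with KB02 and by 0.26 with KB05, and was 0.71 higher with KB05 than with KB02. AUP1, which recruits a ubiquitin-conjugating enzyme, fell by 0.82 with KB02 and by 0.41 with KB05. It was 0.41 higher with KB05 than with KB02. UBE2J1, the conjugating enzyme that works with HRD1, was not called (0.08 and 0.15 against DMSO), and HERPUD2, the paralog of HERPUD1, fell with KB02 by 0.39 and had -0.08 with KB05 (adjusted p = 0.63).

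Ligases of the ER membrane outside that complex moved in both directions. Of 11 tested ligases and conjugating enzymes, 1 was higher and 5 lower with KB02 (median -0.02), and 2 were higher and 4 lower with KB05 (median -0.17), beside the shares of all tested genes given above. RNF145 fell by 0.82 with KB02 and by 0.31 with KB05, and was 0.52 higher with KB05 than with KB02. TMEM129 fell by 0.57 with KB02 and by 0.45 with KB05, and was not called between the compounds. TRIM13 fell by 0.39 with KB02 and had 0.23 with KB05 (adjusted p = 0.0689). It was 0.61 higher with KB05 than with KB02. UBE2J2, a conjugating enzyme of the ER membrane, was the 1 gene higher with KB02 (0.36) and was also higher with KB05 (0.19).

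Among 12 tested genes of glycan trimming and recognition beside EDEM1, 7 were lower with KB02 (median -0.46), where 23.3% of all tested genes were lower. For KB05, 5 were lower (median -0.16), where 21.1% of all tested genes were lower. The rest were not called. EDEM3, a mannosidase related to EDEM1, had 38.0 ± 2.54 CPM with KB02, 29.5 ± 3.82 with KB05 and 57.5 ± 3.78 with DMSO. It fell by 0.60 with KB02 and by 0.97 with KB05, and was lower with KB05 than with KB02 (-0.37, adjusted p = 0.00133). EDEM2 was placed otherwise, falling by 0.64 with KB02, with -0.11 for KB05 (adjusted p = 0.377) and 0.53 for KB05 against KB02 (adjusted p = 1.75e-05). MAN1A1, a Golgi mannosidase, fell with KB02 by 0.89 and had 0.02 with KB05 (adjusted p = 0.93). The lectins OS9 and ERLEC1 count in this group and in the HRD1 complex. Other groups overlap too, so their counts are not separate observations. EIF2AK3 counts among the UPR transducers and in the PERK arm, and SEC62 among the XBP1 and ATF6 targets and the ER-phagy receptors. HSPA5, CALR, HSP90B1, PDIA6 and CRELD2 count among those targets and among the genes with ERSE letters.

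The cytosolic side of the pathway, which pulls substrates out of the membrane and carries them to the proteasome, held called genes in both directions. Of 21 tested genes, 7 were higher and 6 lower with KB02 (median 0.01), where 22.8% and 23.3% of all tested genes were higher and lower. With KB05, 4 were higher and 8 lower (median -0.11), beside 18.7% and 21.1% of all tested genes. In either direction, 13 of the 21 were called with KB02 and 12 with KB05, beside 46.1% and 39.8% of all tested genes. Between the compounds, 5 were higher and 8 lower with KB05 than with KB02 (median -0.12), beside 21.8% and 18.2%. SELENOS and UBXN8, ER membrane proteins that recruit the ATPase p97, fell with KB02 by 1.03 and 1.00, and with KB05 by 0.39 each. VCP, which encodes p97, had 320 ± 9.57 CPM with KB02, 255 ± 11.3 with KB05 and 342 ± 6.20 with DMSO, and fell with KB05 by 0.42. UBXN4, another p97 adaptor, fell with KB02 by 0.27 and with KB05 by 0.62. FAF2, an adaptor that brings p97 to the ER and to lipid droplets, rose by 0.32 with KB02 and fell by 0.35 with KB05. It was 0.67 lower with KB05 than with KB02 (adjusted p = 3.74e-08).

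Of 28 known XBP1 and ATF6 targets outside degradation, 2 were higher and 22 lower with KB02 (median -0.84). For KB05, 2 were higher and 21 lower (median -0.40). The shares of all tested genes were 22.8% higher and 23.3% lower with KB02, and 18.7% and 21.1% with KB05. With KB05 against KB02, 20 were higher and the rest not called (median 0.46), beside 21.8% of all tested genes higher. SSR3 and SSR1, subunits of the translocon-associated complex, fell with KB02 by 1.64 and 1.35, and with KB05 by 0.85 and 0.51. SSR4 and PDIA6 fell by 1.11 and 1.25 with KB02 and by 0.24 and 0.38 with KB05. Both were 0.87 higher with KB05 than with KB02. DNAJB9, an ER co-chaperone that binds IRE1, was one of the genes that rose, with 43.4 ± 1.95 CPM with KB02, 39.9 ± 2.43 with KB05 and 18.7 ± 3.26 with DMSO. Its log2 fold changes were 1.21 and 1.09, and KB05 against KB02 gave -0.12 (95% interval -0.31 to 0.07). The others that rose were SEC31A with KB02 (0.33), which encodes a coat protein of ER export vesicles, and SEC61G with KB05 (0.53), a subunit of the ER protein channel.

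Genes of the PERK arm, which signals through the factor ATF4, were mostly higher with either compound. Of 12 tested, 10 were higher and 1 lower with KB02 (median 1.53), beside 22.8% and 23.3% of all tested genes. For KB05, 9 were higher and the rest not called (median 1.28), beside 18.7% of all tested genes higher. DDIT3, which encodes the transcription factor CHOP, had 384 ± 34.7 CPM with KB02, 577 ± 16.1 with KB05 and 61.7 ± 1.29 with DMSO. ATF3 rose by 2.67 with KB02 and 3.37 with KB05, and CHAC1, which degrades glutathione, by 2.85 and 2.98. The exception with KB02 was VLDLR, a lipoprotein receptor, which fell by 0.84 and had 0.15 with KB05 (adjusted p = 0.496). ATF4, the factor translated when PERK or another eIF2 kinase is active, rose by 1.09 and 0.63. The 6 tested mRNAs known to be cut by IRE1 in other cells had 4 lower with KB02 (median -0.54), beside 23.3% of all tested genes. They had 1 lower with KB05 (median -0.16), beside 21.1% of all tested genes, and the rest were not called. PDGFRB, called with neither, averaged 0.208 CPM with KB02, 0.456 with KB05 and 0.547 with DMSO, near the floor of 3 reads. SPARC, also called with neither, averaged 1.73, 1.90 and 1.62 CPM in the same order. SCARA3, a scavenger receptor-like protein, fell by 1.298 with KB02 and 0.76 with KB05. COL6A1, a collagen chain, fell by 0.72 with KB02 and had -0.21 with KB05 (adjusted p = 0.15).

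**Figure D4:**
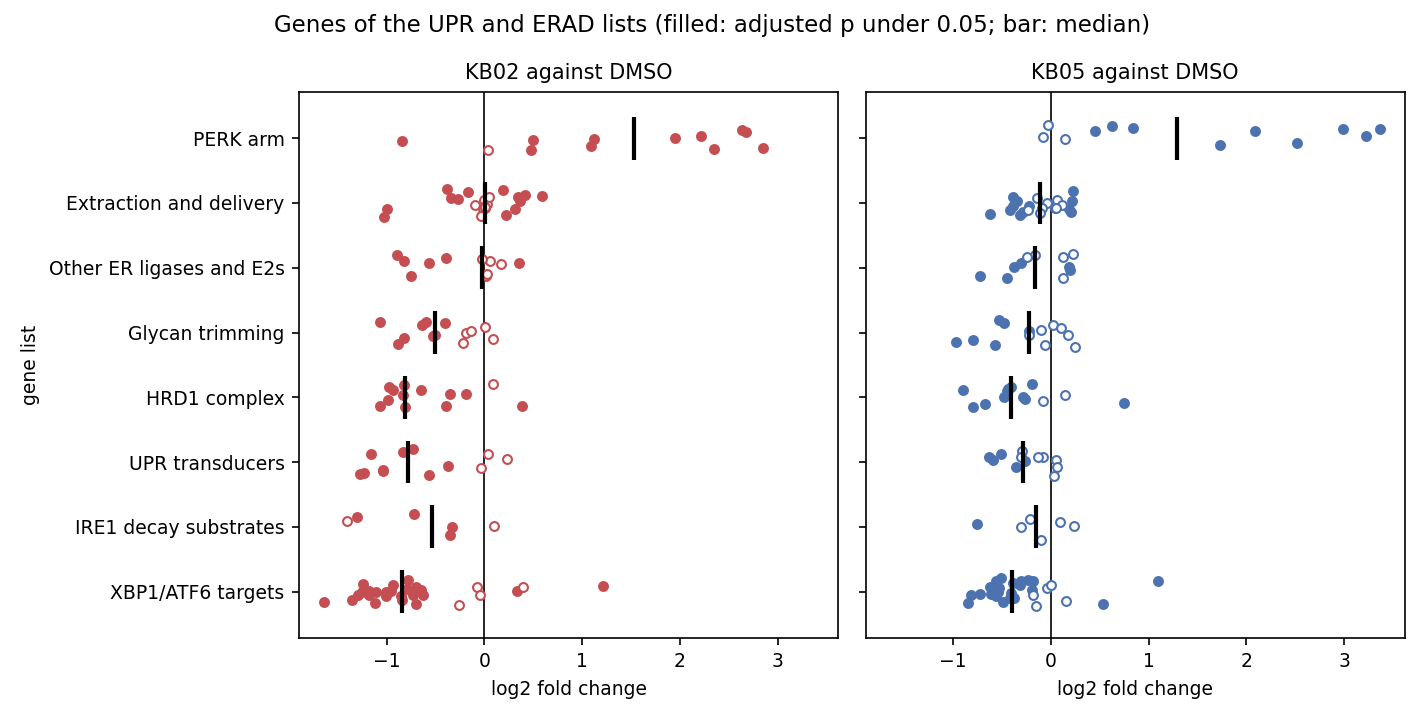
Log2 fold change of every tested gene of 8 functional lists, members included, for KB02 and KB05 against DMSO; filled points have an adjusted p under 0.05 and the black bar is the median of the list. The PERK arm lies to the right of 0 (medians 1.53 and 1.28) and the XBP1 and ATF6 targets to the left (medians -0.84 and -0.40).

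For the 3 sensor and factor genes and for HERPUD1, the genes whose log2 CPM followed them most closely over the 9 libraries were looked up among 13086 genes. Those libraries fall into 3 groups of 3, so a high Pearson r describes mainly a shared order of groups. XBP1 was followed by B3GNT2 (r = 0.994), which extends glycans, the zinc-finger factor ZNF217 (0.99) and MAN1A1 (0.987). ATF6 was followed by the metal transporters SLC39A14 (0.996) and SLC11A2 (0.992) and by CMTM6 (0.993), a membrane protein that stabilises PD-L1. HERPUD1 was followed by MBD6 (0.984), the autophagy receptor SQSTM1 (0.983) and the non-coding RNA GASAL1 (0.979). For ERN1 the closest were EVI5L (0.929), the antisense RNA MIF-AS1 (0.918) and ZMYND10 (0.911).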

How the data were processed

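The authors deposited estimated counts per gene, with no depth scaling and a column for each library. Salmon 1.3.0 and DESeq2 1.30.1 were used with hg38 and GRCh38.p13, per the submitters' processing notes. The sources used here give neither the annotation release nor the use of strand. Salmon divides ambiguous reads by estimate, so overlapping genes and paralogs share reads. Between 20.3% and 24.3% of values per library were not whole and were rounded. Of 60232 identifiers, 60064 matched the name table. The 15 samples taken at 8 h were not analysed here.

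Genes passing filterByExpr (minimum count 10) were tested in R 4.3.3 with edgeR 4.0.16, using TMM factors and an unblocked quasi-likelihood model of the 3 groups over all 9 libraries. Contrasts gave each comparison, and p-values were adjusted by Benjamini-Hochberg over 18379 genes, with a threshold of 0.05. The SE is the log2 fold change divided by the square root of F, and intervals are at 95%. The floor of 3 counts covers counting error only. Replicate pairs differed by more than sampling noise (chi-square per degree of freedom 4.28 to 9.75), and all 9 libraries were counted.

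The members and gene lists were chosen with earlier results of these data known. Genes named from each list are the 2 called ones with the largest change per comparison among those averaging at least 1 log2 CPM, and the 3 closest genes to XBP1, ERN1, ATF6 and HERPUD1 by Pearson r. Other genes named beside them were chosen after their values were seen. One gene that the rule names is not reported here. Alternatives were other scaling factors, no filter, DESeq2 1.42.0, fits of 2 groups, a replicate block and leaving out each library. Gene positions are from GENCODE 29 on GRCh38, counted from 1, and promoters from RefSeq on GRCh38.p14.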

Additional observations from a re-analysis of the deposited data

How the results depend on the processing

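Calls were recomputed under 16 alternatives per comparison. All 96 recomputed totals of genes and of members called, in either direction, stayed within 1.5 times the reported total. By direction, members higher with KB02 than with DMSO numbered 2 in place of 1 with upper-quartile factors, library size alone and without KB02 replicate 2. Members lower with KB05 than with KB02 numbered 2 in place of 0 with library size alone and 1 without KB02 replicate 2. The added members were ERN1 and SEL1L, with the values below. All 912 recomputed values of named genes outside the 10 members kept their direction and call. Of the recomputed member values, 468 kept both, 6 changed sign, 6 gained a call and 0 lost one. The sign changes were of values near 0 that were never called. DERL1 for KB05 against KB02 was -0.0794 with library size alone as the scaling and -0.00554 in the fit of those groups alone. Leaving out 1 library gave -0.0239 to 0.0653, below 0 without DMSO, KB02 or KB05 replicate 2. ERN1 for KB05 against DMSO ran from -0.0101 to 0.0832 on leaving out 1 library, below 0 without DMSO replicate 1. Gained calls were of ERN1, for KB02 against DMSO with upper-quartile factors (0.28), library size alone (0.36) and without KB02 replicate 2 (0.40), and for KB05 against KB02 with library size alone (-0.31) and without KB02 replicate 2 (-0.37), and of SEL1L for KB05 against KB02 with library size alone (-0.22). The cause was not tested. Genes called numbered 7692 to 8507 for KB02 against DMSO, 6174 to 7515 for KB05 against DMSO and 6314 to 7716 for KB05 against KB02 when a library was left out. DESeq2 called 7620, 6436 and 6435 in those comparisons.

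Replicate numbers gave at most a weak pairing. Deviations of same-numbered libraries correlated at -0.0412 to 0.0813, and those of differently numbered libraries at -0.0658 to 0.0393. Each KB02 library correlated best with a library of its own number, but not every library did so. A fit with the replicate block called 8600, 7476 and 7518 genes for KB02 against DMSO, KB05 against DMSO and KB05 against KB02. Without the block 8470, 7321 and 7346 were called. Of the 10 members the block fit called 9, 8 and 6, as without it. Read depth lay well above the floor for every member: ERN1, the lowest, had 13.9 to 18.7 CPM, and 3 counts amount to 0.129 to 0.195 CPM. Without strand, reads of DERL3 and SMARCB1 cannot be told apart where their exons overlap.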

Other observations

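Genes of 2 neighbouring systems that clear the ER were also read. ER-phagy receptors are membrane proteins that hand pieces of the ER to autophagosomes. They were lower with KB02 in 9 of 9 tested (median log2 fold change -0.76), beside 23.3% of all tested genes. For KB05, 7 of 9 were lower (median -0.43) and the rest not called, beside 21.1% of all tested genes lower. RTN3, a receptor of tubular ER, had 176.2 ± 4.2 CPM with KB02, 309 ± 12.4 with KB05 and 417 ± 14.5 with DMSO (SD, n = 3 each), falls of 1.24 with KB02 and 0.43 with KB05 on the log2 scale. SEC62, a translocon subunit that also acts in ER-phagy, fell by 0.95 with KB02 and by 0.18 with KB05. ATL3 and CALCOCO1 fell with KB02 by 0.88 and 0.54, and with KB05 by 0.53 and 0.54. With KB05 against KB02, 6 of the 9 were higher (median 0.35), RTN3 by 0.81 and SEC62 by 0.77, beside 21.8% of all tested genes higher.

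The products of UFMylation genes attach the ubiquitin-like UFM1 to ribosomes at the ER. Of 8 tested, 1 was higher and 2 lower with KB02 (median -0.05), where 46.1% of all tested genes were called. With KB05, 2 were higher and 1 lower (median 0.07), where 39.8% were called. UFL1, the ligase, had 14.4 ± 1.98 CPM with KB02, 15.7 ± 2.05 with KB05 and 34.8 ± 4.99 with DMSO, falls of 1.26 and 1.14. DDRGK1, its ER membrane partner, fell by 0.80 with KB02 and had 0.05 with KB05 (adjusted p = 0.608), and was 0.85 higher with KB05 than with KB02. UFSP1 rose by 0.63 with KB02 and by 1.34 with KB05, with 6.59 ± 0.61 and 10.8 ± 0.96 CPM, against 4.27 ± 1.02 with DMSO.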
